A study of Mus musculus with 9 samples.

Results

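Transcription factor genes of the ocular surface and the eye, Pax6, Klf4, Klf5, Elf3, Trp63 and Foxc1, were followed across mouse cornea, lens and tendon. They were taken as all probe sets that the platform annotation gives to 1 of these 6 genes alone, 7 of the 12488 probe sets in the table and 6 of its 8251 gene symbols. Klf4 had 2 probe sets and each of the other genes had 1. Pax6 is a paired box and homeobox factor that directs eye formation and is needed throughout life in lens epithelium and corneal epithelium, where its dosage matters. Klf4 and Klf5 are zinc finger factors of the Kruppel-like family that maintain barrier epithelia, and Elf3 is an Ets family factor of differentiated epithelia. Trp63 encodes p63, which sustains the basal cells of stratified epithelia, and Foxc1 is a forkhead factor of the periocular mesenchyme, which forms corneal stroma and endothelium.

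RefSeq promoter windows, from 250 bases before to 50 after an annotated start on GRCm38.p6, matched 4 of the 6 genes by gene identifier, and Klf5 and Trp63 had none in the table used. Those of Pax6, Klf4 and Elf3 are shown because the array levels of these genes separated lens from tendon in different directions. Capitals mark every match, on either strand, to the GC box GGGCGG or to the CACCC box CACCC, the short elements that Sp and Kruppel-like factors are known to bind. Pax6 has an upstream start at chr2:105668646-105668945 (+) and a downstream start at chr2:105682213-105682512 (+), Klf4 lies at chr4:55532426-55532725 (-) and Elf3 at chr1:135258423-135258722 (-).
Pax6 upstream: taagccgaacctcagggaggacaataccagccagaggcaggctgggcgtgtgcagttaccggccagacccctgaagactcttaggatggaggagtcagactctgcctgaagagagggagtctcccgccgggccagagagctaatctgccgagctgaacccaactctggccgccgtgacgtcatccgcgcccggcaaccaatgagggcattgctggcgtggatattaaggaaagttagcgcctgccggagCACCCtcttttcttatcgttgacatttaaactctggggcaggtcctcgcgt
Pax6 downstream: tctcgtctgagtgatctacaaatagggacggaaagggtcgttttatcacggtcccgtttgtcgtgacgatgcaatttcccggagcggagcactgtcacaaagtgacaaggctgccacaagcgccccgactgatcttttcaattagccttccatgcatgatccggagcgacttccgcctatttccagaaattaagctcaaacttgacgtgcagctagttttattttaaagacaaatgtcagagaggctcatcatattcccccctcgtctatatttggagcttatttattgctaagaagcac
Klf4: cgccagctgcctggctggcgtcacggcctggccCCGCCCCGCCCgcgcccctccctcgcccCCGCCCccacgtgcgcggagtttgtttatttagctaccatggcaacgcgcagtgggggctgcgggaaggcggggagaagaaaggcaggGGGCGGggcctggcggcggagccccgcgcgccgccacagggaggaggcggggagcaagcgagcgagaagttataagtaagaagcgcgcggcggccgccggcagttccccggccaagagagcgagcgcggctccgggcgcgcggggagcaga
Elf3: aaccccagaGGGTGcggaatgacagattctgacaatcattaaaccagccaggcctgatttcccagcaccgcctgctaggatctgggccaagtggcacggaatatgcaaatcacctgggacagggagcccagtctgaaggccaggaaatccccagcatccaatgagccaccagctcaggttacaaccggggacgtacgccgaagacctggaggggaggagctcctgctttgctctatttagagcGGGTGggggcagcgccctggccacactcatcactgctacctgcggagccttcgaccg
The Klf4 window held 4 GC boxes, beginning 217, 212, 189 and 101 bases before the start, of which the first pair share a base, and no CACCC box. Elf3 held 2 CACCC boxes, 241 and 7 bases before the start, and no GC box, while upstream Pax6 held 1 CACCC box and downstream Pax6 neither motif. Of all 32851 promoter windows of this length, 35.7% held a GC box and 57.5% a CACCC box. No match of 1 motif overlapped a match of the other. The windows differed in base composition, with 74.3% G and C in Klf4, 59.0% in Elf3, 58.7% in upstream Pax6 and 46.3% in downstream Pax6, against a median of 52.7% over all windows. These matches describe the letters only.

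RNA from 9 preparations was hybridised to 9 Affymetrix arrays. There were 3 arrays of adult mouse cornea and 2 of adult lens, 2 of flexor digitorum longus tendon, all from mice of 7 weeks, and 2 of cornea from postnatal day 10 (P10), with strain and genotype not given in the sources used here. Corneas were freed of limbus and scraped, which left some epithelium, and RNA of lens and of tendon was drawn from pooled tissue. Labels give replicates as independent preparations, so p-values measure the spread between preparations, and cornea had also served an earlier study, so that tissue and batch cannot be told apart.

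Levels are deposited expression indices in arbitrary units on a linear scale, and differences are on the log2(index + 16) scale, which understates differences of low genes. Array medians ran from 67.6 to 88.0, and precision is limited by having only 9 arrays. Adult cornea replicate 1 had a 3'/5' ratio of the Gapdh control of 2.25, against 0.831 to 1.04 elsewhere. Its ratio of the actin control was 4.69, against 1.07 to 2.07 elsewhere. Replicate arrays correlated at 0.869 to 0.927 in adult cornea and at 0.953 to 0.978 in the other groups. The summed index of 32 epithelial markers was 32222 to 34538 on adult and 36045 to 36951 on P10 cornea arrays, 5681 to 5975 on lens and 5175 to 6146 on tendon. Cornea of both ages therefore carried strong epithelial signal despite scraping, with the keratin Krt12 at 6440 to 8290. Krt5 did not mark the cornea on these arrays, at 62.0 to 142 there and 84.2 to 117 elsewhere. Tendon arrays carried muscle RNA, with a summed index of 21 muscle markers of 60200 to 71696 against 964 to 2118 on the other arrays. Cornea arrays carried lens crystallin signal, with Cryaa at 1280 to 3082, against 6405 to 7231 on lens and 12.2 to 31.7 on tendon. Lens arrays read Krt12 at 1603 to 1758, against 257 to 401 on tendon. The summed index of 7 photoreceptor and retina markers was 2334 to 3482 on lens and 320 to 336 on tendon. It was 719 to 2438 on adult and 1535 to 2298 on P10 cornea arrays. That of 5 pigment cell markers was 1329 to 3609 on P10 cornea arrays and 593 to 912 on the others.

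**Figure D1:**
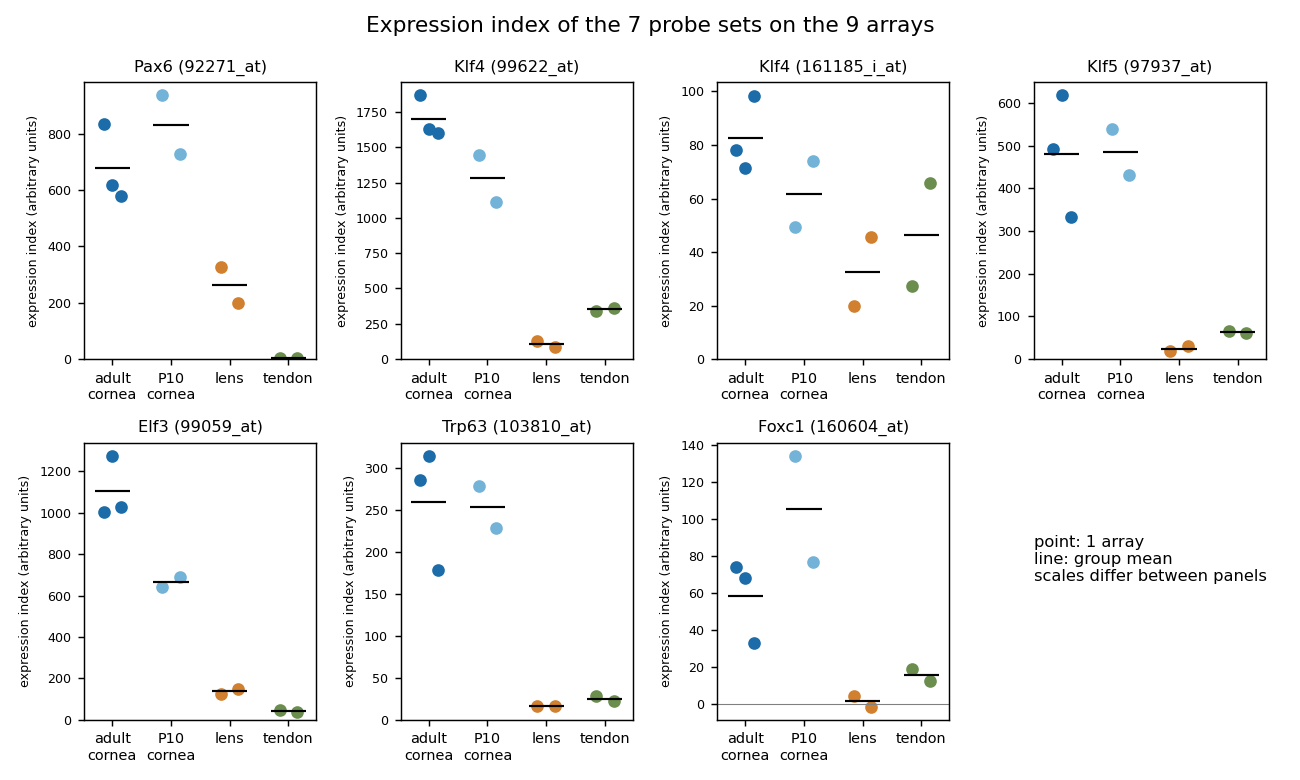
Expression index (arbitrary units, linear) of the 7 probe sets on the 9 arrays, each point 1 array and each line a group mean, with a separate scale per panel. Pax6, Elf3, Klf5, Trp63, Foxc1 and Klf4 probe set 99622_at read higher on every cornea array than on any lens or tendon array. Pax6 and Elf3 were next highest in lens while Klf4 and Klf5 were next highest in tendon.

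The factors read highest in cornea, and lens and tendon were ordered differently from gene to gene. In adult cornea against lens all 7 probe sets were higher by limma's test at an adjusted p under 0.05, where 27.2% of all tested probe sets were called higher. Against tendon 6 of 7 were higher in the adult (16.1% of all tested). In P10 cornea 6 of 7 were higher than in lens (31.6% of all tested) and 6 of 7 than in tendon (15.7% of all tested). Members higher in all 4 comparisons numbered 6 of 7, against 7.1% of all tested probe sets, and they were all members except the second Klf4 probe set. These comparisons share the cornea, lens and tendon arrays, so they are not independent of each other. Testing required a value at or above the array median on 2 or more of the 9 arrays. Klf5, Trp63, Foxc1 and the second Klf4 probe set met this through cornea arrays alone, so their passing already required a high cornea. With median centring the share of all calls that were higher moved from 62.0% to 50.6% in P10 cornea against lens and from 58.7% to 48.5% against tendon, and the members' calls were the same 6 and 6. In such tissue samples fewer cells of a type and less RNA per cell cannot be told apart.

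Groups did not overlap for 7 of 7 members in adult cornea against lens (63.9% of all tested probe sets) and for 7 of 7 against tendon (57.9%). For P10 cornea the counts were 7 against lens (80.7%) and 6 against tendon (76.7%), and for lens against tendon 6 (78.9%), so with so few arrays such separation was common. The series' own criteria ask for a 2-fold change, a difference of 100 units and a p under 0.05 in the methods' t-test. By them 4 members were called in adult cornea against lens (18.8% of all tested), 5 against tendon (16.7%), 5 in P10 cornea against lens (14.8%) and 4 against tendon (11.0%). None was called in lens against tendon (16.8%) or between the ages (2.39%). After Benjamini-Hochberg adjustment the methods' t-test left 1 member in adult cornea against lens (2.32% of all tested) and 3 against tendon (4.53%). It left 0 in P10 cornea against lens (0.0245%) and against tendon (0.0%), 0 in lens against tendon (0.0123%) and 0 between the ages (0.0%). At these sample sizes that test, without variances shared across probe sets, made few calls over all probe sets.

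Pax6, measured by 92271_at, read 833, 619 and 580 on the 3 adult cornea arrays and 936 and 728 on the P10 arrays. It read 326 and 199 on lens and 3.80 and 2.39 on tendon. Cornea, lens and tendon did not overlap, and tendon lay near 0, below the median of its arrays. Adult cornea was 2.53-fold above lens (log2 1.34 ± 0.25 SE, limma adjusted p = 0.0015) and P10 cornea 3.11-fold (log2 1.64 ± 0.28, limma adjusted p = 0.00088). Lens was 14.2-fold above tendon (log2 3.83 ± 0.28 SE, limma adjusted p = 2.32e-06). Adult cornea exceeded tendon 35.9-fold and P10 cornea 44.1-fold (limma adjusted p = 2.18e-07 and 4.45e-07), ranking 21 and 20 of 8154 tested probe sets from the highest. The folds against tendon rest on the pseudocount, since the log2 difference of adult cornea from tendon was 7.37 with a pseudocount of 1 and 3.45 with 64. The order was thus cornea, lens, tendon, with every step called except that between the ages of cornea.

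Klf4, measured by 99622_at, read 1871, 1631 and 1599 in adult cornea and 1449 and 1111 at P10. It read 125 and 83.9 in lens and 343 and 361 in tendon. Here tendon, not lens, was next to the cornea, and no groups overlapped. Adult cornea was 14.4-fold above lens (log2 3.85 ± 0.21 SE, limma adjusted p = 5.63e-07) and 4.66-fold above tendon (log2 2.22 ± 0.21, limma adjusted p = 2.03e-05). At P10 the differences from lens and tendon were 10.8-fold and 3.49-fold (limma adjusted p = 2.36e-06 and 0.000273). Lens was 3.09-fold below tendon (log2 -1.63 ± 0.23 SE, limma adjusted p = 0.000213).

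The second Klf4 probe set, 161185_i_at, gave far weaker separation. It read 78.0, 71.5 and 98.5 in adult cornea, 49.5 and 74.2 at P10, 19.7 and 45.6 in lens and 27.3 and 65.7 in tendon. Adult cornea was 2.09-fold above lens (log2 1.06 ± 0.32 SE, limma adjusted p = 0.0197). That call was lost without lens replicate 1 (limma adjusted p = 0.18, with a range of 0.0137 to 0.18 over 17 alternatives). Its difference from tendon, log2 0.72 ± 0.32 SE, did not pass (limma adjusted p = 0.114), except without tendon replicate 2 (limma adjusted p = 0.0461, within a range of 0.0461 to 0.686 over 17 alternatives). Only the adult cornea arrays reached their array's median. The direction of adult cornea against lens, tendon and P10 cornea was the same as in the first probe set, and the sizes disagreed.

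Klf5, measured by 97937_at, read 493, 619 and 332 in adult cornea and 539 and 432 at P10. Lens gave 19.7 and 29.4, and tendon 66.6 and 60.7. All lens and tendon values lay below their array's median. Adult cornea was 12-fold above lens (log2 3.58 ± 0.26 SE, limma adjusted p = 2.87e-06) and 6.06-fold above tendon (log2 2.60 ± 0.26, limma adjusted p = 3.34e-05). P10 cornea differed from them by 12.4-fold and 6.26-fold (limma adjusted p = 6.34e-06 and 9.17e-05). With pseudocounts of 1 and 64 the adult differences were log2 4.22 and 2.59 from lens and 2.85 and 2.06 from tendon. Klf5 was thus like Klf4 in having lens at the bottom, but lens lay below tendon by 1.98-fold only (log2 -0.98 ± 0.29 SE, limma adjusted p = 0.0163). This last call was lost without lens replicate 1 (limma adjusted p = 0.0981), tendon replicate 1 (0.0909) or tendon replicate 2 (0.0632), and with a pseudocount of 64 (0.0903), in a range of 0.00388 to 0.0981 over 18 alternatives.

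Elf3, measured by 99059_at, read 1005, 1274 and 1028 in adult cornea and 639 and 690 at P10. It read 124 and 150 in lens and 48.0 and 35.6 in tendon. The 4 groups did not overlap, in the order adult cornea, P10 cornea, lens and tendon. Adult cornea was 7.29-fold above lens (log2 2.87 ± 0.20 SE, limma adjusted p = 2.12e-06) and 19.3-fold above tendon (log2 4.27 ± 0.20, limma adjusted p = 1.59e-07). At P10 the differences were 4.46-fold and 11.8-fold (limma adjusted p = 3.09e-05 and 1.47e-06). With pseudocounts of 1 and 64 the adult difference from tendon was log2 4.69 and 3.46. Lens was 2.65-fold above tendon (log2 1.41 ± 0.22 SE, limma adjusted p = 0.000417), the same direction as Pax6 and opposite to the first Klf4 probe set and Klf5.

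Trp63, measured by 103810_at, read 286, 314 and 178 in adult cornea and 279 and 229 at P10. It read 16.8 and 16.7 in lens and 27.9 and 22.3 in tendon, below the array median on all 4 arrays. Adult cornea was 8.20-fold above lens (log2 3.04 ± 0.24 SE, limma adjusted p = 5.07e-06) and 6.54-fold above tendon (log2 2.71 ± 0.24, limma adjusted p = 1.45e-05). P10 cornea gave nearly the same values, 8.20-fold and 6.55-fold (limma adjusted p = 1.2e-05 and 4.54e-05). With pseudocounts of 1 and 64 the adult differences were log2 3.83 and 1.98 from lens and 3.28 and 1.83 from tendon. Lens and tendon differed by log2 -0.33 ± 0.26 SE (limma adjusted p = 0.338), so their order was not resolved.

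Foxc1, measured by 160604_at, was low on every array. It read 74.2, 68.0 and 32.8 in adult cornea, 134 and 76.4 at P10, 4.52 and -1.67 in lens and 18.7 and 12.3 in tendon. Only 1 adult and 1 P10 cornea array reached their array's median. P10 cornea was above lens (log2 2.70 ± 0.35 SE, limma adjusted p = 0.00015) and tendon (log2 1.91 ± 0.35, limma adjusted p = 0.00288). Adult cornea was above lens (log2 1.99 ± 0.32 SE, limma adjusted p = 0.000537) and above tendon (log2 1.19 ± 0.32, limma adjusted p = 0.0147). The difference of adult cornea from tendon was not called without adult cornea replicate 1 (limma adjusted p = 0.0544), tendon replicate 1 (0.0507) or tendon replicate 2 (0.112), or with a pseudocount of 1 (0.0837), in a range of 0.0012 to 0.112 over 17 alternatives. Against lens the log2 difference of adult cornea was 4.57 with a pseudocount of 1 and 0.87 with 64, since lens lay about 0.

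**Figure D2:**
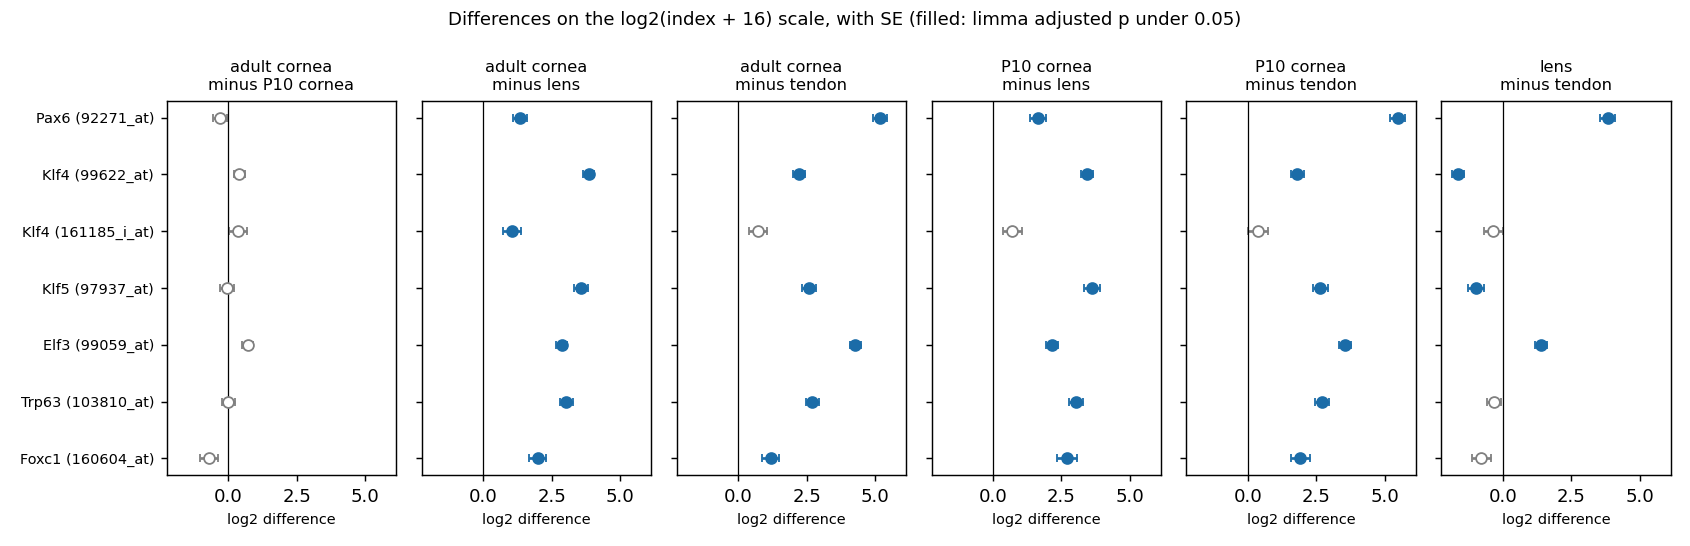
Differences between groups on the log2(index + 16) scale (x axis) for the 7 probe sets (y axis), with bars of 1 SE from the limma fit of all 9 arrays and filled points at an adjusted p under 0.05. The 29 filled points are 25 in the 4 comparisons of cornea with lens or tendon and 4 in lens against tendon, which lie on both sides of 0.

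Between the ages, 0 of 7 members passed limma's test, against 4.57% of all tested probe sets, and 2 of 7 had an unadjusted p under 0.05. The ages did not overlap for 3 of 7, where 31.6% of all tested probe sets did not. Elf3 and Foxc1 had the 2 low unadjusted p-values, and they lay in opposite directions. Elf3 was 1.64-fold higher in the adult than at P10 (log2 0.71 ± 0.20 SE, 95% interval 0.27 to 1.15, limma adjusted p = 0.0843), with all adult arrays above both P10 arrays. It passed with quantile normalization (limma adjusted p = 0.0445) and in none of the other limma alternatives, which ranged up to 0.508. Foxc1 had a log2 difference of -0.71 ± 0.32 SE (95% interval -1.42 to -0.01, limma adjusted p = 0.313), with no overlap between the ages. The summed epithelial markers were lower in the adult, at 32222 to 34538 against 36045 to 36951. The median log2 difference of the 29 tested was -0.12, near the -0.13 of all tested probe sets. Of these markers 1 was called higher, Cldn7, and 3 lower, where 15.3% of all calls were higher in the adult. The lower ones were the keratins Krt19 (4.13-fold), Krt4 (3.56-fold) and Krt17 (2.89-fold; limma adjusted p = 0.0117, 0.0204 and 0.039). Krt12 was at 7197 ± 948 (SD, n = 3) and 6877 ± 617 (SD, n = 2), and its range of 6440 to 8290 is also the range of the highest index over the cornea arrays. The summed stromal markers were 15112 to 16129 in the adult and 29461 to 30242 at P10. The part of tissue makeup in either difference was not tested.

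For the remaining factors the interval of the age difference included 0. For Trp63 the log2 difference was 0.00 ± 0.24 SE (95% interval -0.54 to 0.54), and for Klf5 -0.05 ± 0.26 (-0.63 to 0.54). Both signs turned positive with quantile normalization, trimmed mean scaling and median centring. Pax6 had -0.30 ± 0.25 SE (-0.86 to 0.27), and Klf4 had 0.41 ± 0.21 (-0.05 to 0.88) with 99622_at, whose adult arrays all lay above P10. The second Klf4 probe set had 0.35 ± 0.32 SE (-0.37 to 1.07). The median of all tested probe sets was -0.13 in this comparison, and 0.02, 0.00 and 0.04 under quantile normalization, trimmed mean scaling and median centring, and small differences are read relative to it. The share of all calls that were higher in the adult was 15.3%, and 27.3%, 26.7% and 29.0% under those alternatives.

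Between lens and tendon, 2 of 7 members were higher in lens, Pax6 and Elf3 (22.6% of all tested probe sets), and 2 were lower, Klf4 with 99622_at and Klf5 (26.4%). These counts lie near the shares over all probe sets, the Klf5 call was lost in 4 alternatives as given above, and Trp63, Foxc1 and the second Klf4 probe set were not called. With lens given as a percent of adult cornea, the mean index was 38.7 for Pax6, 39.5 for Klf4 with 161185_i_at and 6.15 with 99622_at. It was 12.4 for Elf3, 6.46 for Trp63, 5.1 for Klf5 and 2.44 for Foxc1. Genes abundant in corneal cells stood in the same terms at 23.4 for Krt12, 15.1 for Tkt, which encodes transketolase, and 8.94 for Aldh3a1, an aldehyde dehydrogenase of corneal epithelium and keratocytes, while the sum of 32 epithelial markers was 17.6. Pax6 and the weaker Klf4 probe set thus stood above these 3 genes, and Klf5, Trp63, Foxc1 and Klf4 with 99622_at below them. Other genes would set other marks, as the keratocyte marker Kera was at 5.54 and Krt5, which did not mark the cornea, at 115. The lens values of 161185_i_at lay below the array median. The part of epithelial or retinal RNA in the lens values was not tested. In tendon, as a percent of adult cornea, Klf4 was at 56.3 with 161185_i_at and 20.7 with 99622_at, Foxc1 at 26.6, Klf5 at 13.2, Trp63 at 9.69, Elf3 at 3.79 and Pax6 at 0.457. Beside them stood Krt12 at 4.57, Tkt at 2.73, Aldh3a1 at 0.0 and the epithelial sum at 17.1. These percents use no pseudocount, so those resting on means near 0 have no firm size. They are those of Pax6 in tendon, with a mean of 3.10, of Foxc1 in lens, with a mean of 1.42, and of Aldh3a1 in tendon. The tendon mean of Aldh3a1 was -10.3 and was set to 0 for its percent. Markers of muscle, adipocytes, leukocytes, vascular endothelium and Schwann cells stood at their highest on the same tendon arrays. So did the lists for tendon, for keratocytes and stroma and for corneal endothelium. The part of these cell types in the Klf4 and Klf5 readings was not tested.

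**Figure D3:**
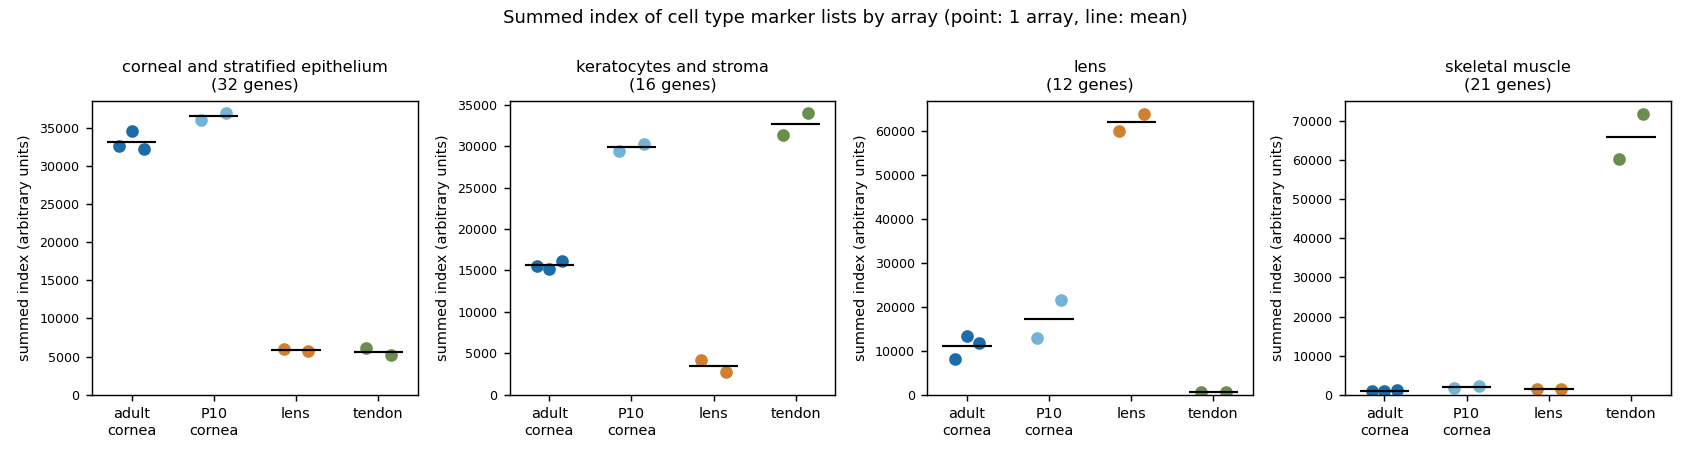
Summed expression index (arbitrary units, values below 0 set to 0) of 4 marker lists by array, each point 1 array and each line a group mean. Epithelial markers were high on all 5 cornea arrays, stromal markers were lower in adult than in P10 cornea, lens markers ran from lens through cornea to tendon, and muscle markers were high on tendon arrays alone, at 60200 to 71696.

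Relatives of the members did not follow one pattern. Among the other Kruppel-like and Sp factors, 9 of 15 were tested. Against lens, 3 were higher and 1 lower in the adult (27.2% and 24.0% of all tested probe sets) and 6 higher and 1 lower at P10 (31.6% and 19.4%). Against tendon, 0 were higher and 4 lower in the adult (16.1% and 18.9%) and 3 higher and 3 lower at P10 (15.7% and 11.0%). In lens against tendon 1 was higher and 6 lower (22.6% and 26.4%). Against tendon the adult calls thus ran opposite to Klf4 and Klf5. Against lens most calls ran the same way, but the adult count of 3 higher lay near the share of 27.2% over all probe sets. Genes lower in adult cornea than in tendon included Klf9, a glucocorticoid-responsive factor, at 129 ± 31.7 (SD, n = 3) in adult cornea and 481 ± 35.5 (SD, n = 2) in tendon (3.49-fold, limma adjusted p = 0.000211). Klf2, a factor of quiescent endothelium and T cells, was at 65.9 ± 9.81 in adult cornea, 484 ± 105 in lens and 217 ± 6.31 in tendon. It was 6.07-fold lower in adult cornea than in lens (limma adjusted p = 4.64e-06), where Klf4 and Klf5 were lowest. Klf10 was the 1 member of this list called between the ages, at 71.5 ± 14.4 in the adult and 160 ± 10.4 at P10 (2.02-fold lower, limma adjusted p = 0.0151). Over all tested probe sets 4.57% were called in that comparison.

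Among the other Ets factors 8 of 20 were tested, and 5 were higher and 1 lower in adult cornea than in lens (27.2% and 24.0% of all tested), with a median log2 difference of 0.86 against 0.08 over all tested probe sets. Against tendon 4 were higher and 0 lower in the adult (16.1% and 18.9%) and also at P10 (15.7% and 11.0%), the direction of Elf3. In lens against tendon 2 were higher and 2 lower (22.6% and 26.4%). Ets2 was at 251 ± 43.1 (SD, n = 3) in adult cornea, 443 ± 18.4 (SD, n = 2) at P10, 48.1 ± 3.93 in lens and 151 ± 9.31 in tendon, so that lens lay lowest, unlike Elf3. Elk3 ran the other way, at 20.3 ± 13.9 in adult cornea and 155 ± 25.9 in lens (4.98-fold lower in cornea, limma adjusted p = 0.000817). Of the other forkhead factors 10 of 22 were tested, and 6 were higher and 1 lower in adult cornea than in lens (27.2% and 24.0% of all tested), with a median log2 difference of 0.81. Foxq1, at 194 ± 61.5 in adult cornea, 267 ± 16 at P10, 28.6 ± 2.45 in lens and 61.5 ± 8.13 in tendon, was higher in both ages than in both other tissues (limma adjusted p = 2.81e-05 to 0.00132). Foxj1, a factor of ciliated cells, was highest in lens at 993 ± 341, against 262 ± 32.6 in adult cornea (3.54-fold, limma adjusted p = 0.000152).

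Several lens factors were ordered opposite to Pax6. Of 12 tested factors of lens fibre and lens epithelium, 6 were lower and 3 higher in adult cornea than in lens (24.0% and 27.2% of all tested), with a median log2 difference of -0.71 (0.08 over all tested). Hsf4, a heat shock factor of lens fibres, was at 360 ± 68.7 (SD, n = 2) in lens and -4.09 ± 5.38 (SD, n = 3) in adult cornea (limma adjusted p = 1.24e-06). Sox2, a partner of Pax6 in lens induction, was at 430 ± 167 in lens and 8.72 ± 3.6 in adult cornea (17.5-fold, limma adjusted p = 1.25e-06). Prox1, a homeobox factor of fibre elongation, was at 204 ± 40.9 and 5.30 ± 7.13 (10.1-fold, limma adjusted p = 8.61e-06). These genes were near 0 on cornea arrays, so Pax6 and these 3 factors were ordered in opposite ways between cornea and lens. The source of the crystallin signal on cornea arrays was not tested. Among 19 tested paired box and homeobox eye factors, 4 were higher and 9 lower in adult cornea than in lens (27.2% and 24.0% of all tested), with a median of -0.10.

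Surface epithelium factors were mostly higher in cornea than in lens. Of 17 tested, 11 were higher and 0 lower in adult cornea than in lens (27.2% and 24.0% of all tested), and 6 were higher and 4 lower than in tendon (16.1% and 18.9%). Tfap2b, an AP-2 factor of neural crest and ocular surface, was at 143 ± 54.7 (SD, n = 3) in adult cornea, 242 ± 47.4 (SD, n = 2) at P10, 10.8 ± 8.05 in lens and 7.99 ± 5.66 in tendon. It was 5.85-fold above lens and 6.47-fold above tendon in the adult (limma adjusted p = 0.000107 and 0.000105). Cebpd, an acute-phase and adipocyte factor, was lower in adult cornea than in tendon, at 65.7 ± 15.1 against 258 ± 3.92 (3.39-fold, limma adjusted p = 0.000192). Jag2, a Notch ligand, was the 1 gene of the list called between the ages (4.57% of all tested), lower in the adult at 102 ± 45.9 against 241 ± 32.5 (limma adjusted p = 0.0492).

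Genes reported elsewhere as targets of Trp63, Klf4, Klf5 and Elf3, listed from general knowledge, were mostly higher in cornea. Of 18 tested Trp63 targets, 12 were higher and 0 lower in adult cornea than in lens (27.2% and 24.0% of all tested), and 13 and 0 than in tendon (16.1% and 18.9%). Itgb4, the hemidesmosomal integrin chain, was at 1029 ± 171 (SD, n = 3) in adult cornea and -22.2 ± 2.04 (SD, n = 2) in lens (limma adjusted p = 1.09e-07). Krt15, a basal keratin, was at 861 ± 265 in adult cornea, 2245 ± 141 at P10 and 7.04 ± 8.93 in lens. Of 15 Klf4 and Klf5 targets, 11 were higher and 1 lower than in lens, and 11 and 1 than in tendon, to be read against the same shares. Dsp, which encodes desmoplakin, was at 3025 ± 312 in adult cornea and 95.8 ± 19.5 in lens (27.3-fold, limma adjusted p = 5.14e-06). Tjp1, a tight junction scaffold, was at 316 ± 65.8 in adult cornea, 815 ± 2.11 at P10, 231 ± 3.72 in lens and 2039 ± 61.2 in tendon. Between the ages 2 of these 15 were higher in the adult, Psca and Slurp1, and 1 lower, Tjp1, where 4.57% of all tested probe sets were called. Neither Klf4 nor Klf5 was called between the ages, and a link of these targets to the factors was not tested. Of 6 tested Elf3 targets, 4 were higher and 0 lower in adult cornea than in lens (27.2% and 24.0% of all tested). Cldn7, a claudin, was at 824 ± 189 in the adult, 335 ± 24.5 at P10, 1.84 ± 7.67 in lens and -5.33 ± 8.35 in tendon, and rose 2.35-fold between the ages (limma adjusted p = 0.02). Krt4, an Elf3-list keratin of moist epithelia, fell 3.56-fold (limma adjusted p = 0.0204). Of the 6 Elf3 targets these were the 1 called higher and the 1 called lower between the ages (4.57% of all tested). Itgb4, Krt15, Dsp, Cldn7 and Krt4 are also in the list of epithelial markers, as are Krt12, Krt5, Krt14, Pkp1, Sfn and further genes of these target lists. The counts of these lists and the epithelial sums are therefore not separate observations.

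Of 11 tested targets of Pax6, 3 were higher and 4 lower in adult cornea than in lens, near the 27.2% and 24.0% of all tested probe sets. In lens against tendon 6 were higher and 1 lower (22.6% and 26.4%), with a median log2 difference of 1.30 against -0.07 over all tested. Aldh3a1 was 11-fold higher in adult cornea than in lens (limma adjusted p = 7.12e-07) and Cryab, a small heat shock crystallin, 12.6-fold lower (limma adjusted p = 4.33e-07). Among 19 factors and partners of the Foxc1 and neural crest list, 2 were higher and 8 lower in adult cornea than in tendon (16.1% and 18.9% of all tested). Twist2, a mesenchymal bHLH factor, read highest in lens, at 2603 ± 99.8 (SD, n = 2), against 168 ± 17.6 (SD, n = 3) in adult cornea and 80.6 ± 3.55 in tendon. Scx, the tendon factor scleraxis, was at 306 ± 48.4 in tendon and 41.8 ± 3.46 in lens. The lists also share genes with each other. Prox1 is in the lens factor, homeobox and Pax6 target lists, and Tfap2b in the surface epithelium and neural crest lists. Jag2 is a surface epithelium factor and a Trp63 target, and Krt12 is in the Pax6, Klf4 and Klf5, and Elf3 target lists. Counts of lists that share genes are not separate observations.

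**Figure D4:**
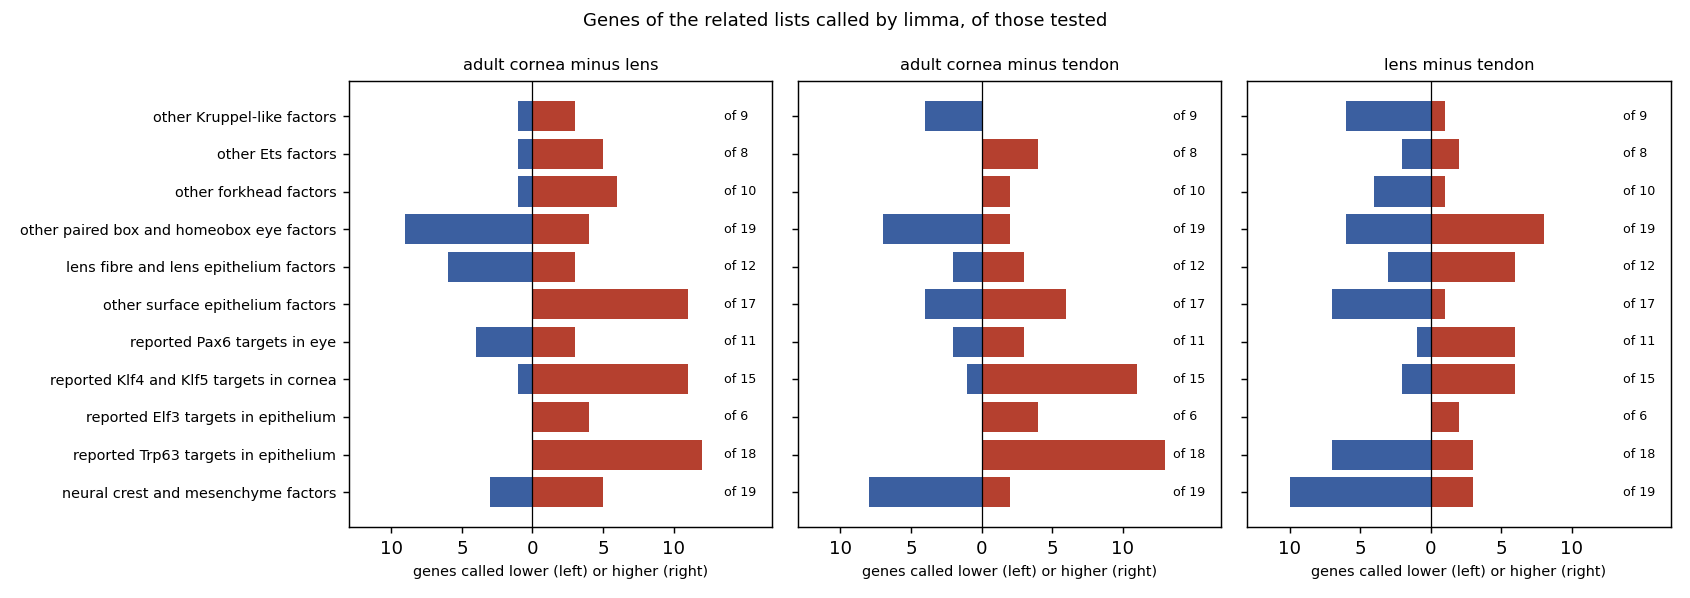
Genes called lower (blue, left) or higher (red, right) by limma in 11 lists of related factors and targets (y axis), for 3 comparisons, with the number tested beside each bar. Trp63 and Klf4/Klf5 target lists leaned to cornea, with 12 and 11 genes higher than in lens, while the neural crest list leaned to tendon.

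Over the 9 arrays, the genes whose log2 values followed each member most closely were taken by Pearson correlation, a description over arrays that share tissue groups. They were picked for following the member on these same arrays. An order of groups shared with the member, that of the ages included, is therefore no separate observation. For Pax6 these were Tpd52 (r = 0.988), Aldh3a1 (0.985) and Adh7 (0.983). Tpd52 had means of 492 in adult cornea, 421 at P10, 283 in lens and 73.2 in tendon, the order of Pax6 apart from the ages. For Klf4 they were Notch3 (0.997), Bok (0.996) and Tmsb4x (0.995). Notch3, a Notch receptor, had means of 618 in adult cornea, 429 at P10, 44.9 in lens and 142 in tendon. Klf5 was followed by Chl1 (0.996), Rab3d (0.993) and Erbb3 (0.993), and Trp63 by Pkp1 (0.996), Bnc1 (0.996) and Rab3d (0.995). Bnc1, the basonuclin of basal keratinocytes, had means of 315 and 287 in adult and P10 cornea, -63.0 in lens and 7.75 in tendon. Elf3 was followed by Pglyrp1 (0.992), Plet1 (0.989) and Gm10228 (0.989), all higher in the adult than at P10, with Pglyrp1, a peptidoglycan recognition protein gene, at means of 862 and 482. For Foxc1 the closest were Topbp1 (0.986), Papss2 (0.984) and Nab1 (0.982). Papss2, which makes the sulfate donor for proteoglycans, had means of 177 in adult cornea, 367 at P10, 19.8 in lens and 75.0 in tendon, with P10 highest as for Foxc1.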

How the data were processed

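Expression was measured on Affymetrix arrays of 9 RNA preparations. The intensity values are a linear expression index deposited by the authors. The series' design text names Microarray Suite 5.0, then dChip with invariant-set normalization, while the submitters' processing notes name MAS5. Which of these programs made the deposited values was not given in the sources used here. Values below 0 occur, detection calls were not used, and no genome build is stated. Deposited values were used without rescaling, as trimmed means between percentiles 2 and 98 differed by a ratio of 1.171, below the limit of 1.25.

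Values at or below 0 were set to 0, 16 was added and log2 taken. Controls (66 probe sets) were left out, and 8154 of 12422 others were tested. A group-means model of all 9 arrays was fitted with limma 3.58.1 in R 4.3.3, with variances following the mean (5 residual degrees of freedom). P-values are two-sided, with Benjamini-Hochberg adjustment over all tested probe sets and a threshold of 0.05. The script was tested on simulated data. Gene symbols come from the platform annotation, and 10817 of 10833 probe sets with 1 symbol matched the RefSeq gene table. Lists used each gene's tested probe set with the highest mean, members excluded, and 159 of their 213 genes are on the array. All member probe sets were named, with up to 3 called genes per list having the largest differences, of which those that matter most are given, and the 3 genes closest to each member. The members and lists were chosen with earlier results of these data known. Alternatives were other pseudocounts, filters and normalizations, fits restricted to 2 groups, the methods' t-test, the replicate number as a block, and each array left out in turn.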

Additional observations from a re-analysis of the deposited data

How the results depend on the processing

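Of 29 called member differences, 26 kept their direction and call in all limma alternatives in which they were tested (a stricter filter left 5 of 7 probe sets) and in all 9 fits that left out 1 array. The exceptions, in Klf5, Foxc1 and the second Klf4 probe set, are given with their values in the report. The methods' t-test with the series' criteria, under which no difference below 100 units can pass, ended 11 of the 29 calls and called 4 members in adult cornea against lens and 0 in lens against tendon. After Benjamini-Hochberg adjustment it called 1 member against lens and 3 against tendon in the adult, 0 and 0 at P10, and 0 in lens against tendon. Between the ages quantile normalization gave 1 call, Elf3. Leaving out 1 array gave 0 calls between the ages, 6 to 7 against lens and 5 to 6 against tendon in the adult, 6 and 6 at P10, and 3 to 5 in lens against tendon.

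Signs that turned belonged to differences that were not called. Klf5 between the ages was at log2 0.03, 0.09 and 0.12 with quantile normalization, trimmed mean scaling and median centring, and Trp63 at 0.12, 0.13 and 0.16, with 0.00 at a pseudocount of 64. Over fits without 1 array they ran from -0.24 to 0.19 and from -0.15 to 0.23. The second Klf4 probe set ran over these fits from log2 -0.09 to 0.83 in P10 cornea against tendon, and from -0.80 to 0.11 in lens against tendon.

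Replicate numbers did not pair the samples, as the correlation of deviations between same-numbered arrays ranged from -0.363 to 0.201. With the replicate number as a replicate block, 0, 7, 6, 6 and 6 members were called in the comparisons of cornea and 5 in lens against tendon, where Foxc1 was added (limma adjusted p = 0.0208, in a range of 0.0161 to 0.302). The block turned Klf5 to log2 0.19 and Trp63 to 0.23 between the ages. With trimmed mean scaling 27 of 28 group levels moved by less than 1 SD. Levels below the array median, as in lens and tendon for Klf5, Trp63 and Foxc1, limit what the folds can show.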
